A study of Homarus americanus with 19 samples.

Results

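Whole larvae of the American lobster (Homarus americanus) that had been exposed to 1-methylnaphthalene were compared with control larvae. Of the 19 RNA-seq libraries of the study, 12 belong to this comparison, 6 from methylnaphthalene larvae and 6 from control larvae, chosen by their treatment label. The other 7 libraries come from larvae exposed to a water accommodated fraction of heavy crude oil (WAF, 72%). Methylnaphthalene larvae spent 24 h in 1-methylnaphthalene at 0.3 mg/L, which the study used as a positive control, and control larvae were kept in seawater passed through a 0.22 µm filter. No genotype, strain or sex is given, each library came from 1 larva, and the study describes stage I larvae whereas the sample labels give the stage as embryonic, day 9. Reads had been counted in 2 ways, per lobster gene with Kallisto and per ortholog group with Seq2Fun, and every gene and group was examined in both directions. Larvae are called M1 to M6 (methylnaphthalene), W1 to W7 (WAF) and C1 to C6 (control), by the replicate numbers of the labels. No label says that same-numbered larvae were paired or how larvae were housed, so each larva was taken as its own replicate. The edgeR p-values below test the difference between the groups against the spread between larvae within groups. That spread was estimated over all 19 larvae, so the WAF larvae contribute to it.

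1-Methylnaphthalene is a polycyclic aromatic hydrocarbon of crude oil, a naphthalene that carries a methyl group. Animals clear such compounds by oxidation, mainly with cytochrome P450 enzymes, followed by conjugation to sugar, glutathione or sulfate and export from the cell. In decapod crustaceans the hepatopancreas is the main site of this chemistry, and it also secretes the digestive enzymes, stores lipid and makes hemocyanin, the copper protein that carries oxygen in the blood. RNA was extracted from whole larvae, so more RNA per cell and more cells of a tissue cannot be told apart.

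Library totals ran between 22724504 and 42595903 estimated counts in methylnaphthalene larvae and between 15342184 and 38401192 in control larvae for Kallisto, and a two-sided exact permutation test of the group means, over all splits of the 12 larvae, gave p = 0.494 (adjusted p = 0.923 over 9 values compared). One feature of the libraries cut across the treatments and was noticed after the data were seen. The first 12 larvae in the order of the submitters' sample list (M1 to M3, W1 to W5 and C1 to C4) and the last 7 (M4 to M6, W6, W7, C5 and C6) differed in 58.1% of the 18914 genes tested, in a fit that also held the treatment (edgeR, adjusted p below 0.05). No label gives a reason for this division. It splits both groups compared here, 3 and 3 methylnaphthalene larvae and 4 and 2 control larvae, so each main result was also computed within each set. Of the tissue markers, troponin I and troponin T of muscle were abundant in every larva, and none of the haemocyte or nerve markers was at 0 in all larvae of a group.

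Methylnaphthalene larvae had far more genes with raised than with lowered expression. A differentially expressed gene (DEG) here has a Benjamini-Hochberg adjusted p below 0.05 in edgeR's quasi-likelihood test over all features and a log2 fold change beyond 1.5, that is, methylnaphthalene over control. For Kallisto, 694 of 18914 genes rose (3.67%) and 32 fell (0.169%). For Seq2Fun, 303 of 10974 ortholog groups rose (2.76%) and 7 fell (0.0638%). By the adjusted p alone, with no fold change threshold, 1363 genes were higher (7.21%) and 252 lower (1.33%), and 615 groups were higher (5.6%) and 67 lower (0.611%). This balance depended on the model. With 1 surrogate variable 2163 genes were higher and 1579 lower by the adjusted p alone (1080 and 843 groups), with the place in the sample list as a term 1810 and 858 genes (848 and 366 groups), in the first 12 larvae alone 1607 and 1042 genes, and in the last 7 alone 938 and 54. The median log2 fold change over all genes tested was -0.02, and over all ortholog groups -0.03.

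**Figure D1:**
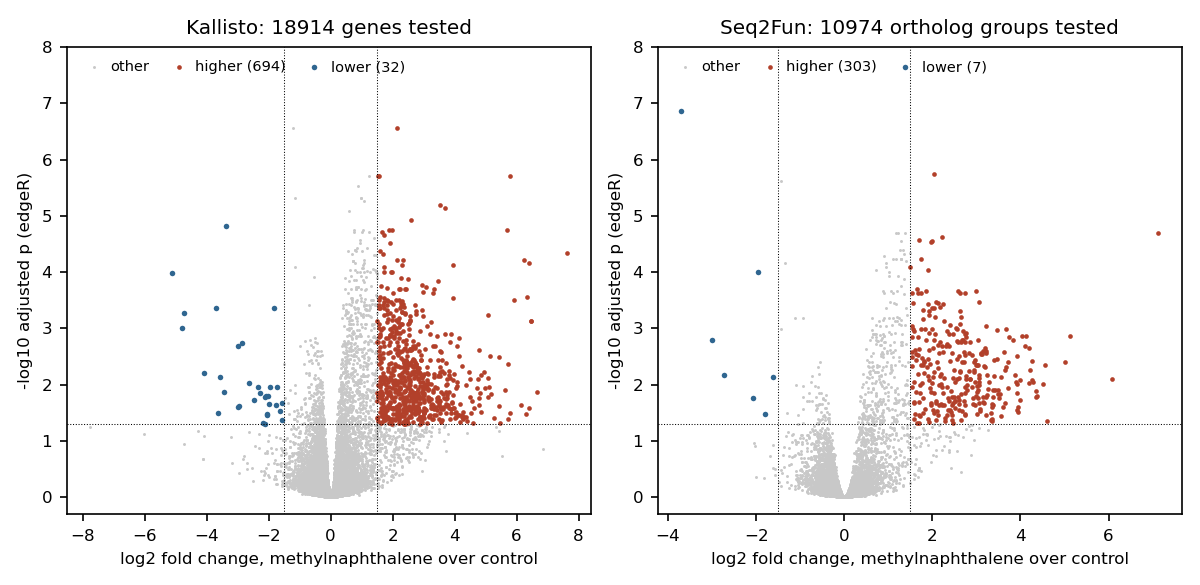
Each point is a gene (left, Kallisto) or an ortholog group (right, Seq2Fun), with the log2 fold change of methylnaphthalene over control larvae on the x axis and -log10 of the edgeR adjusted p on the y axis. Red points rose (694 genes, 303 groups), blue points fell (32 genes, 7 groups), and dotted lines mark the thresholds.

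The rises were large as well as many. Their log2 fold changes had a median of 2.51, with quartiles at 2.03 and 3.12. Beyond a log2 fold change of 3 there were 197 genes, beyond 4 there were 67 and beyond 5 there were 27. The largest belonged to a chitotriosidase gene, at 7.63. The 32 falls had a median of -2.31, and 9 of them were beyond a log2 fold change of -3. The 303 ortholog groups that rose had a median of 2.58 and the 7 falls a median of -2.06. Most of the genes that rose were expressed at moderate to low levels, with a median of 6.33 CPM (counts divided by the TMM-scaled library size) over the 12 larvae. In 32 of the 694 genes every control larva had 3 counts or fewer, so the size of those changes depends on how low counts are treated.

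The direction of these changes was seen in nearly every larva. For 582 of the 694 genes that rose (83.9%), all 6 methylnaphthalene larvae lay above all 6 control larvae. The background to this count is 5.81% of all genes tested, and since the same larvae chose the DEGs the count is a description only. In a further 81 genes 5 of the 6 methylnaphthalene larvae did so, and in no gene fewer than 3. Of the 32 genes that fell, 16 had no overlap between the groups (background 0.909%), and in 6 fewer than 4 of the 6 methylnaphthalene larvae lay below all control larvae. Of the 303 raised ortholog groups 256 (background 4.47%) and of the 7 lowered ones 4 (background 0.784%) had no overlap.

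Single methylnaphthalene larvae differed in how far they had moved. Over the 694 raised genes, the median log2 difference from the mean of the control larvae was 2.03 in M1, 2.13 in M2, 2.62 in M3, 2.86 in M4, 2.95 in M5 and 2.62 in M6. The control larvae ranged between -0.51 and 0.53, with the highest values in C5 (0.53) and C6 (0.52). The lowest methylnaphthalene larva was thus well above the highest control larva, and in both groups the larvae of the last set stood higher than most of the first. M1 was above all control larvae in 648 of the 694 genes and M4 in 690. Over the 32 lowered genes the medians ran between -2.81 in M6 and -1.85 in M4, against a range between -0.48 and 0.87 in control larvae.

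**Figure D2:**
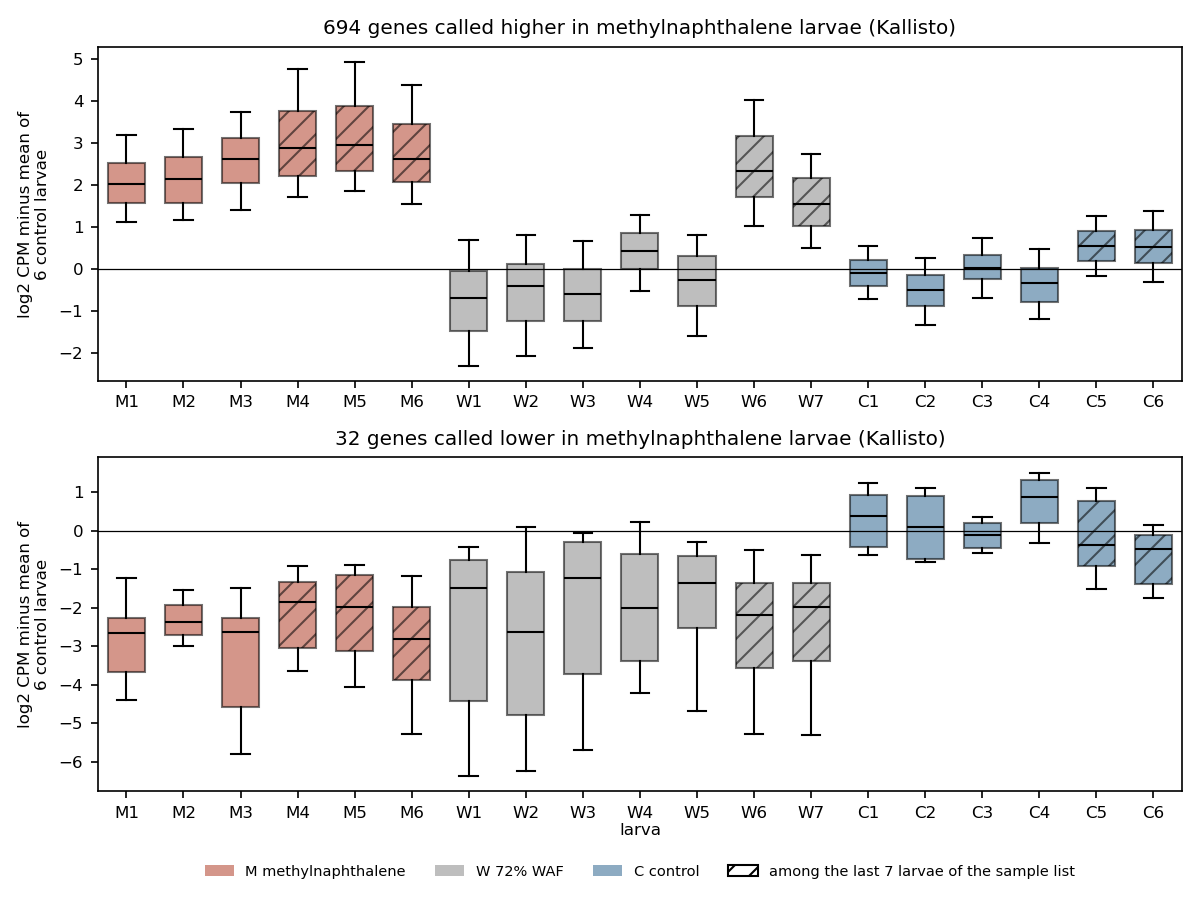
Box plots of the log2 difference of each larva (x axis) from the mean of the 6 control larvae, over the 694 raised genes (top) and the 32 lowered genes (bottom). Boxes span the quartiles with the median as a line, whiskers the 10th to 90th percentiles, and hatched boxes are the last 7 larvae of the sample list. The medians of the methylnaphthalene larvae in the top panel lie between 2.03 and 2.95, and W6 (2.32) and W7 (1.55) lie near them while the control larvae stay within -0.51 and 0.53.

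As a description of the same selection, the raised genes held 2.00%, 2.45%, 2.75%, 5.63%, 6.45% and 4.63% of all Kallisto counts in M1 to M6, against 0.423%, 0.344%, 0.524%, 0.314%, 0.852% and 0.783% in C1 to C6. Genes chosen for higher CPM must hold a larger share, so only the spread between larvae is of interest here, and the last set had the higher shares in both groups. The spread between larvae of a group was of similar size in both treatments for these genes. The median SD of log2 CPM was 0.606 among methylnaphthalene larvae and 0.692 among control larvae for raised genes, and 0.427 and 0.336 over all genes.

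The DEGs were chosen on the larvae of both sets, so their direction within a set was largely fixed by that choice and is given as a description. Of the 694, 653 could be tested in the first 12 larvae and 691 in the last 7, and all of these had a positive log2 fold change there. Their median was 2.49 in the first set and 2.33 in the last. In the first set 550 of them were DEGs on their own, in the last set 481, and 399 in both. The falls were less even. Their median was -2.87 in the first set and -2.13 in the last, 24 were DEGs in the first set and 5 in the last, which holds only 2 control larvae. No Kallisto gene had a methylnaphthalene effect that differed between the sets (edgeR interaction term, adjusted p below 0.05), while 3411 did at an unadjusted p below 0.05, and no other tool was run for the interaction. The effect differed in 16 Seq2Fun groups, and in 1917 at an unadjusted p below 0.05.

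**Figure D3:**
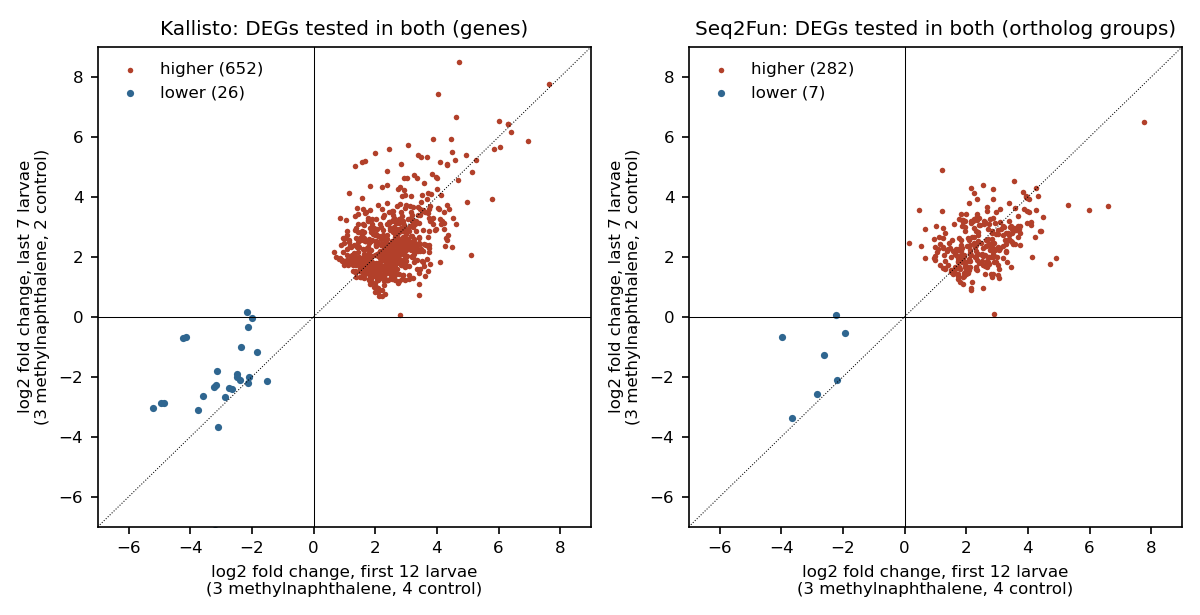
Each point is a DEG of the full comparison that was tested in both sets of larvae, with its log2 fold change (methylnaphthalene over control) in the first 12 larvae on the x axis and in the last 7 on the y axis. The dotted line marks equal changes. Raised features (red) lie in the upper right, while several lowered ones (blue) lie near 0 in the last 7 larvae.

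To see which functions were involved, DEGs were grouped into 37 families by name. The names come from the study's supplementary data, which list only the most significant features of these larvae, so counts over Kallisto families are chosen on the result and are no evidence for a family. With that limit, 184 of the 362 genes in these families rose (50.8%, where 3.67% of all genes did) and 17 fell. The Seq2Fun families hold all groups of the table that belong to the same parent group, and are less selected, although a parent enters only through a named group. Of their 332 members tested, 48 rose (14.5%, where 2.76% of all groups did) and 2 fell. In both tables, the members given with values below were mostly taken among DEGs without overlap. A lack of overlap in such a member is a description only. Kallisto divides reads between near-identical genes by estimation, so single members of hemocyanin, crustacyanin and heat shock 70 kDa families are uncertain, and 4 DEGs shared their counts in every larva with a second gene.

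**Figure D4:**
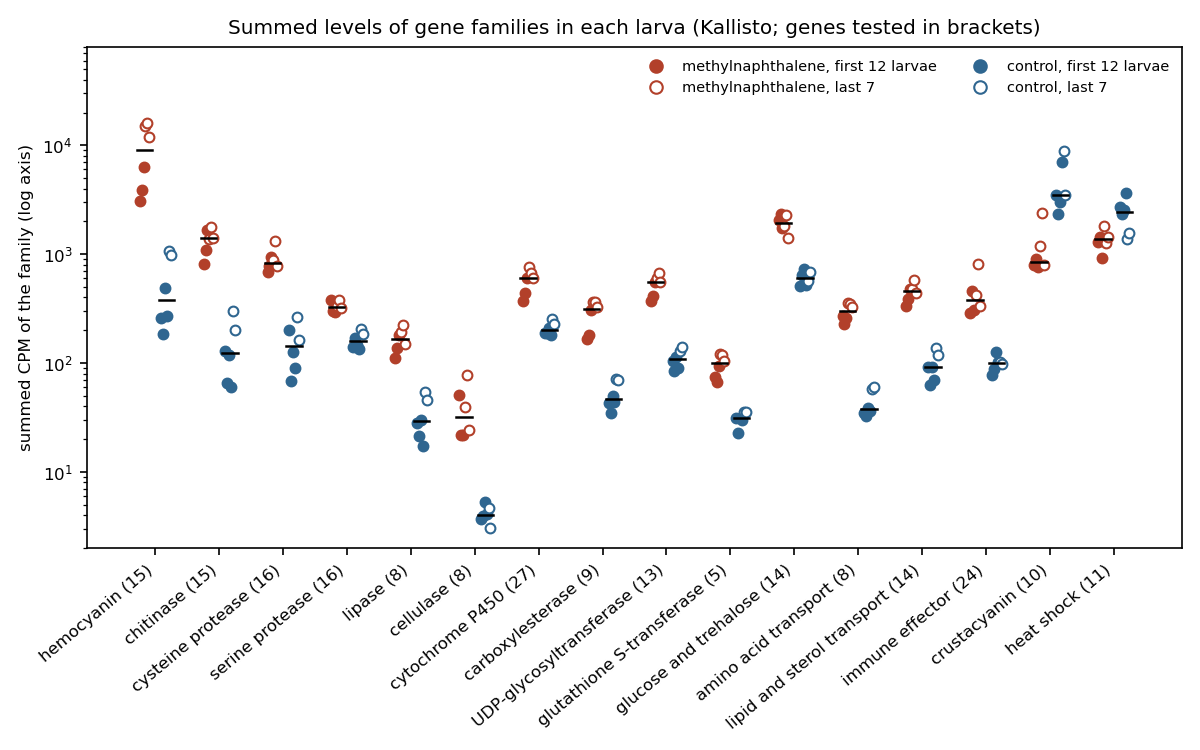
Summed CPM of the members of 16 families in each larva, on a log axis, with methylnaphthalene larvae (red) left of control larvae (blue) in each family. Open points are the last 7 larvae of the sample list, black lines are medians, and the number of genes tested is in brackets. Hemocyanin stands highest in methylnaphthalene larvae (median 9030 against 380 CPM in control larvae), and crustacyanin and heat shock are the families drawn in which control larvae have the higher median.

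Hemocyanin, the oxygen carrier, was the most abundant group among the rises. Of 15 hemocyanin genes tested, 12 rose and none fell, with a median log2 fold change of 4.36, and 11 had no overlap between the groups. Summed over the family, methylnaphthalene larvae ranged between 3090 and 16000 CPM with a median of 9030, against a range between 186 and 1060 CPM and a median of 380 in control larvae. The most abundant member, LOC121880057 (hemocyanin C chain), had 1613, 4364 and 7006 CPM as the lowest, median and highest methylnaphthalene larvae, against 91.8, 174.8 and 540 CPM in control larvae. All methylnaphthalene larvae lay above all control larvae, M4 to M6 highest, and C5 and C6 were the highest controls. Its log2 fold change was 4.02 ± 1.14 (SE, n = 6 per group; edgeR adjusted p = 0.0318), and it did not keep the call when M4, M5 or any of C1 to C4 was left out. LOC121877417 (hemocyanin A chain) had the largest change of the family, 6.15 ± 1.64 (SE, edgeR adjusted p = 0.0234), with 0.911, 5.37 and 26.3 CPM in methylnaphthalene larvae and 0, 0.0874 and 0.442 CPM in control larvae. It lost the call without any of C1 to C4. The ortholog group s2f_0002890013 (hemocyanin C chain) took 4005, 15540 and 29870 CPM in methylnaphthalene larvae against 152, 482 and 1347 CPM in control larvae, with a log2 fold change of 4.61 ± 1.34 (SE, edgeR adjusted p = 0.0436), and lost the call without any of 10 of the 12 larvae. The second group of the same parent, s2f_0002890015, which has no name in the sources used, was not a DEG (log2 fold change -0.36).

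Metal-binding proteins rose less steeply. LOC121858340, a copper-specific metallothionein, which binds copper ions, had 114, 161 and 296 CPM as the lowest, median and highest methylnaphthalene larvae, against 13.4, 28.3 and 40.5 CPM in control larvae. The groups did not overlap, and its log2 fold change was 2.79 ± 0.709 (SE, edgeR adjusted p = 0.0171). LOC121867537, a ferritin, the iron storage protein, had a change below the fold threshold but a narrow spread, at 1612, 1814 and 2163 CPM in methylnaphthalene larvae and 802, 872 and 919 CPM in control larvae (log2 fold change 1.09 ± 0.135, SE, edgeR adjusted p = 6.21e-05). All 4 genes of this family had an adjusted p below 0.05 and no overlap, and 1 passed the fold threshold.

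Genes of digestive enzymes rose together in the Kallisto table. Chitinases, which cleave the chitin of food and of the old cuticle, had 10 of 15 tested genes raised, with a median log2 fold change of 2.79. None fell past both thresholds. By the adjusted p alone 1 was lower, LOC121863756 (-0.69, without overlap), named after its values were seen. LOC121855516, an endochitinase, had 471, 1051 and 1224 CPM in the lowest, median and highest methylnaphthalene larvae, against 28.5, 54.2 and 181 CPM in control larvae. Its lowest methylnaphthalene larva, M1, was above the highest control larva, C5, and its log2 fold change was 3.62 ± 0.898 (SE, edgeR adjusted p = 0.0147). LOC121873294, a chitotriosidase, carried the largest change of all genes that rose, 7.63 ± 0.913 (SE, edgeR adjusted p = 4.65e-05). It had 1.40, 14.2 and 38.0 CPM in methylnaphthalene larvae and between 0 and 4 reads in each control larva, so the fold rests on few control reads. Among the ortholog groups 4 of 7 chitinases rose, led by s2f_0000180009 (endochitinase), at 970, 1921 and 2799 CPM in methylnaphthalene larvae and 53.3, 99.5 and 331 CPM in control larvae (log2 fold change 3.66 ± 0.775, SE, edgeR adjusted p = 0.00549).

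Protein-digesting enzymes followed the same direction. Of 16 cysteine protease genes tested 14 rose, all with no overlap, at a family median of 2.86. LOC121856941 (digestive cysteine proteinase 3) had 285, 423 and 700 CPM as the lowest, median and highest methylnaphthalene larvae, against 35.0, 82.5 and 141 CPM in control larvae. Although the groups were well apart, its adjusted p of 0.0475 (edgeR, log2 fold change 2.48 ± 0.756, SE) was near the threshold, and it lost the call whichever larva of the 12 was left out. LOC121863392 (dipeptidyl peptidase 1) had the largest fitted change of the family, 5.44 ± 1.08 (SE, edgeR adjusted p = 0.00318), on between 4 and 88 reads in methylnaphthalene larvae and 2 reads or fewer in each control larva. Of 7 cysteine protease ortholog groups 2 rose. Among them s2f_0000048026 (cathepsin L1) stood at 1427, 1627 and 2507 CPM in methylnaphthalene larvae and 348, 419 and 663 CPM in control larvae (log2 fold change 1.92 ± 0.333, SE, edgeR adjusted p = 0.00122).

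Trypsins and other serine proteases were raised in 8 of 16 genes, with 1 gene lower at an adjusted p below 0.05 that did not pass the fold threshold. LOC121863887 (cationic trypsin) had 29.9, 57.5 and 66.4 CPM in methylnaphthalene larvae and 6.69, 9.86 and 13.6 CPM in control larvae, with no overlap and a log2 fold change of 2.45 ± 0.456 (SE, edgeR adjusted p = 0.00192). The largest change belonged to LOC121870351 (trypsin-1), at 3.30 ± 0.973 (SE, edgeR adjusted p = 0.0403), a gene with at most 2.82 CPM that lost the call with limma and without any of 8 larvae (M3 to M5, C1 to C4 or C6). None of the 4 groups tested in the Seq2Fun serine protease family rose. The naming rule left out parent s2f_0000001, in which 9 of 24 named groups matched serine proteases. Groups of that parent were among the rises, such as s2f_0000001134, s2f_0000001160 and s2f_0000001045. Whether these are serine proteases is not given here, so the family count does not show that serine protease groups stayed level. The 2 astacin metalloproteases both rose, among them LOC121863063 (nas-14) with 7.45, 10.1 and 15.2 CPM in methylnaphthalene larvae and 1.58, 2.12 and 3.61 CPM in control larvae.

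Enzymes for plant fibre and fat were raised as well. All 8 cellulase genes tested rose, and 5 had no overlap between the groups. LOC121865164 (endoglucanase E-4) had 12.4, 20.6 and 37.0 CPM as the lowest, median and highest methylnaphthalene larvae, against 1.39, 2.81 and 3.56 CPM in control larvae (log2 fold change 3.08 ± 0.43, SE, edgeR adjusted p = 0.00018). LOC121872646, also endoglucanase E-4, was listed with 4 reads or fewer in each control larva and with 2.63, 4.42 and 15.2 CPM in methylnaphthalene larvae. The only cellulase group of the Seq2Fun table, s2f_0000395019, was higher in every methylnaphthalene larva but below the fold threshold (log2 fold change 1.37 ± 0.227, SE, edgeR adjusted p = 0.000861). Of 8 lipase genes 4 rose, among them LOC121868024 (pancreatic lipase-related protein 2) with 49.1, 76.1 and 126 CPM in methylnaphthalene larvae and 8.62, 13.8 and 24.4 CPM in control larvae. LOC121867505 (pancreatic lipase-related protein 3) rose by 2.99 ± 0.864 on the log2 scale (SE, edgeR adjusted p = 0.0364), and lost the call with limma and without any of 9 of the 12 larvae.

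**Figure D5:**
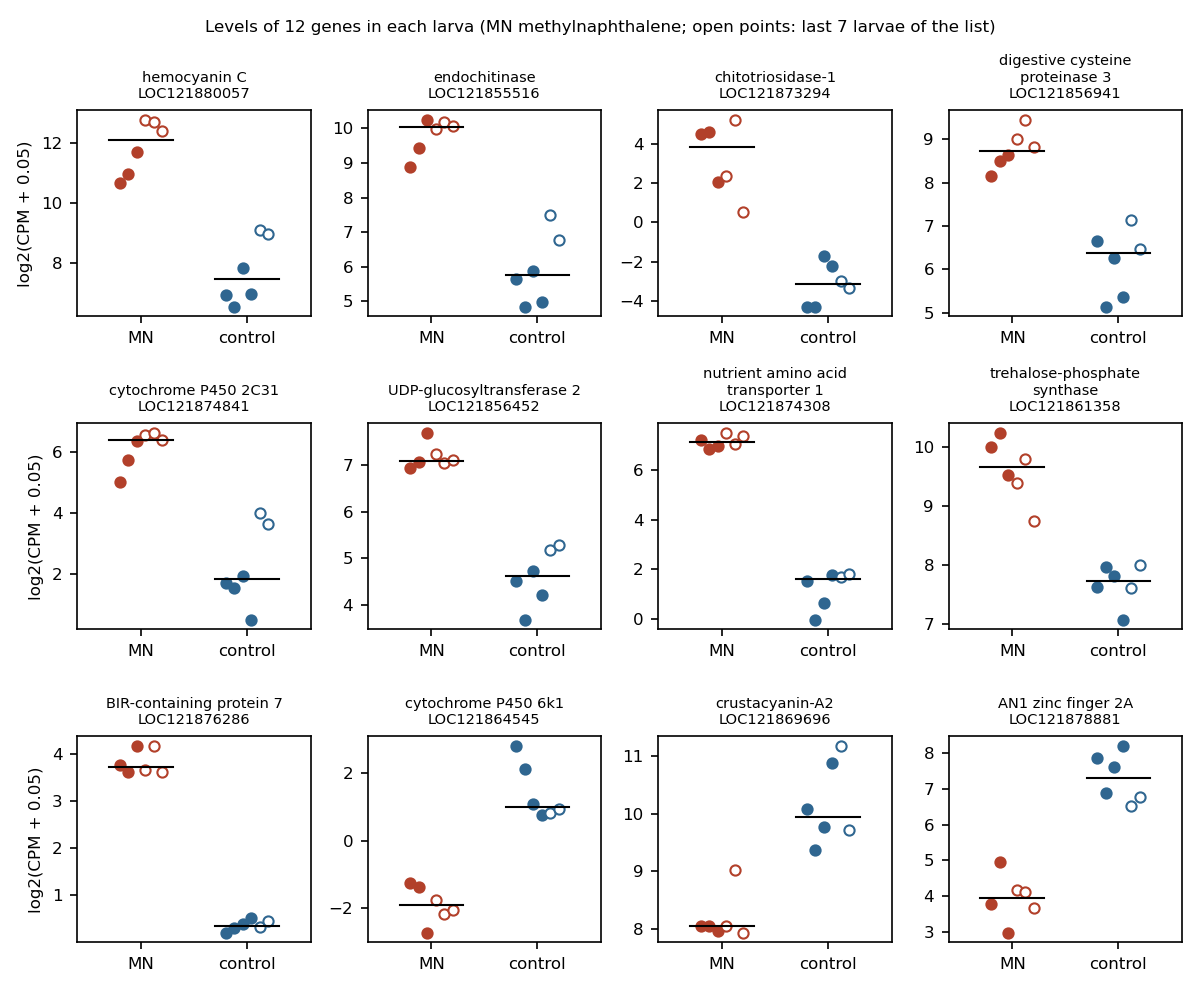
Levels of 12 genes in each larva as log2(CPM + 0.05), with methylnaphthalene larvae (MN, red) left of control larvae (blue). Open points are the last 7 larvae of the sample list, and black lines are medians. In each of the 12 genes the groups do not overlap. Genes of a family were mostly taken among those without overlap, so this is a description only. Cytochrome P450 6k1, crustacyanin-A2 and AN1 zinc finger 2A are lower in methylnaphthalene larvae.

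Cytochrome P450 genes, whose enzymes oxidise hydrocarbons, moved in both directions. Of 27 tested, 15 rose and 4 fell, with a median log2 fold change of 2.32, and none of the called genes that fell overlapped between the groups. The most abundant that rose without overlap, LOC121874841 (cytochrome P450 2C31), had 32.7, 83.9 and 99.7 CPM as the lowest, median and highest methylnaphthalene larvae, against 1.35, 3.50 and 15.8 CPM in control larvae. C5 and C6 were the highest controls and M1 the lowest methylnaphthalene larva. Its log2 fold change was 3.50 ± 1.04 (SE, edgeR adjusted p = 0.0412), and the call was lost when any of 10 of the 12 larvae was left out. The 4 that fell were named P450 6k1 in 3 cases and P450 6a18 in 1. LOC121864545 (6k1) was the most abundant of them, with 0.101, 0.221 and 0.373 CPM in methylnaphthalene larvae against 1.67, 1.98 and 7.03 CPM in control larvae, a log2 fold change of -3.70 ± 0.575 (SE, edgeR adjusted p = 0.000431) that kept its call in all 23 alternatives. LOC121880228, a further 6k1 gene, had the largest fitted change of the family at -7.75 but missed the threshold (edgeR adjusted p = 0.0571). It was listed at 0 in every methylnaphthalene larva and averaged 0.974 CPM in control larvae, so that change is no bound. The other genes that fell, like LOC121880228 named after their values were seen, are LOC121878279 (-3.46), LOC121859289 (-2.98) and LOC121854089 (-2.88), given as log2 fold changes. Of 8 P450 ortholog groups 2 rose and none fell, and s2f_0000004090 (P450 2L1) had 221, 405 and 474 CPM in methylnaphthalene larvae and 77.8, 94.5 and 106 CPM in control larvae (log2 fold change 2.00 ± 0.305, SE, edgeR adjusted p = 0.000429).

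The partners that pass electrons to P450 were higher as well. LOC121866482 (NADPH-cytochrome P450 reductase) had 86.9, 118 and 179 CPM as the lowest, median and highest methylnaphthalene larvae, against 35.1, 37.1 and 42.3 CPM in control larvae. The groups did not overlap, and its log2 fold change was 1.70 ± 0.332 (SE, edgeR adjusted p = 0.00274), 1.36 in the first set of larvae and 1.97 in the last. The call was lost with the place in the sample list as a term and in the first 12 larvae alone. LOC121862914 (cytochrome b5) differed between the sets in these values, with a log2 fold change of 2.80 in the first and 0.05 in the last, and 1.84 ± 0.49 in all (SE, edgeR adjusted p = 0.0229), a call lost with limma, the replicate block or 1 surrogate variable and without M2, C3 or C4. The ortholog group s2f_0000486003, linked to this gene only by the name cytochrome b5, had 2.90 in the first set and 0.08 in the last. This difference passed the interaction test (edgeR adjusted p = 0.0499). Its call in all larvae was lost with limma, the replicate block or 1 surrogate variable, and without M1, M2, C1, C3 or C4.

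Other enzymes of the oxidation and hydrolysis step rose in part. LOC121867744 (juvenile hormone epoxide hydrolase 1), of a family that opens epoxides, had 18.6, 34.1 and 38.1 CPM in methylnaphthalene larvae and 8.90, 10.1 and 12.1 CPM in control larvae (log2 fold change 1.57 ± 0.24, SE, edgeR adjusted p = 0.00039). That call was lost without M6, with the place in the sample list as a term and in the first 12 larvae alone. LOC121877365 (epoxide hydrolase 4) rose by 1.68 ± 0.289 on the same scale (SE, edgeR adjusted p = 0.000968), a call lost in the first 12 larvae alone. Carboxylesterases, which split ester bonds, had 4 of 9 genes raised. Among them LOC121863041 (juvenile hormone esterase) had 91.7, 181 and 203 CPM as the lowest, median and highest methylnaphthalene larvae, against 8.07, 18.4 and 33.5 CPM in control larvae, and LOC121853171 (esterase FE4) had the largest change, 3.07 ± 0.72 (SE, edgeR adjusted p = 0.0104). Of 13 carboxylesterase ortholog groups only 2 rose, and the family median was -0.13. The first of these, s2f_0000027007 (venom carboxylesterase-6), was among the 5 named groups with the smallest adjusted p, at 403, 547 and 732 CPM in methylnaphthalene larvae and 142, 168 and 181 CPM in control larvae (log2 fold change 1.69 ± 0.188, SE, edgeR adjusted p = 2.68e-05).

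Of the molybdenum-dependent oxidases 3 of 5 genes rose. LOC121857494 (xanthine dehydrogenase) had 13.3, 31.9 and 35.5 CPM in methylnaphthalene larvae and 1.51, 2.50 and 5.06 CPM in control larvae. LOC121859889 (indole-3-acetaldehyde oxidase, named after a plant enzyme) differed widely among methylnaphthalene larvae, with a lowest value of 0.559 and a highest of 10.8 CPM, all above the control larvae at 0.126 to 0.462 CPM. Its log2 fold change was 1.67 in the first set and 5.18 in the last. Short-chain dehydrogenases and aldo-keto reductases had 7 of 16 genes raised, led by LOC121858740 (family 9C member 7) with 107.7, 156 and 236 CPM in methylnaphthalene larvae and 32.4, 39.9 and 54.9 CPM in control larvae, but only 2 of 27 Seq2Fun groups.

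Conjugating enzymes were represented mainly by the UDP-glycosyltransferases, which attach sugars. Of 13 genes 9 rose and none fell, 11 had no overlap, and the family median was 2.50. LOC121856452 (UDP-glucosyltransferase 2) had 123, 136 and 208 CPM as the lowest, median and highest methylnaphthalene larvae, against 12.7, 24.6 and 39.0 CPM in control larvae. The highest larva was M3, and the groups were far apart (log2 fold change 2.50 ± 0.522, SE, edgeR adjusted p = 0.00452). LOC121876453 (UGT5) had the largest change, 4.16 ± 1.1 (SE, edgeR adjusted p = 0.0219), but rested in part on M5, at 83.6 CPM where the next larva had 26.2 CPM, and lost the call with limma and without M5, C1, C2 or C3. Of 5 ortholog groups of this family 3 rose. Of these s2f_0000108009 had 263, 382 and 502 CPM in methylnaphthalene larvae and 83.8, 90.4 and 132.1 CPM in control larvae (log2 fold change 1.97 ± 0.225, SE, edgeR adjusted p = 2.94e-05), and s2f_0000108030 (UDP-glucuronosyltransferase) had 185, 325 and 362 CPM against 22.5, 43.8 and 63.1 CPM in control larvae.

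Glutathione S-transferases, which attach glutathione, were all higher in the Kallisto table, where each of the 5 genes had no overlap and 2 passed the fold threshold. LOC121875445 (GST 1-1) had 8.15, 17.3 and 27.9 CPM in methylnaphthalene larvae and 0.776, 1.23 and 2.65 CPM in control larvae (log2 fold change 3.44 ± 0.819, SE, edgeR adjusted p = 0.0114). LOC121873350 (GST Mu 4) rose by 2.71 ± 0.564 on the log2 scale (SE, edgeR adjusted p = 0.00452). No glutathione S-transferase group of the Seq2Fun table was a DEG, of 7 tested, and 2 had an adjusted p below 0.05. Sulfotransferases rose in 3 of 11 genes, all by less than 1.63 on the log2 scale. By the adjusted p alone 7 of the 11 were higher and 2 lower, and 4 higher genes and 1 lower gene had no overlap. None of the 10 sulfotransferase groups of the Seq2Fun table was a DEG. LOC121865056 (luciferin sulfotransferase) lost its call with limma, without M4 or M5 and in 5 other fits. Among the transporters of the ABC family, LOC121860081 (white) had 21.2, 46.6 and 56.2 CPM in methylnaphthalene larvae and 3.66, 6.62 and 9.46 CPM in control larvae. LOC121862193 (ABC G family member 20) rose by 3.25 ± 0.756 on the log2 scale (SE, edgeR adjusted p = 0.00991). Only 1 of 22 ABC ortholog groups rose.

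Genes of sugar handling gave some of the most even changes. LOC121861358 (trehalose-phosphate synthase), an enzyme of trehalose synthesis, had 430, 808 and 1206 CPM as the lowest, median and highest methylnaphthalene larvae, against 134, 211 and 255 CPM in control larvae. The groups did not overlap, with M6 the lowest exposed larva, and its log2 fold change of 1.98 ± 0.213 (SE, edgeR adjusted p = 1.8e-05) was 2.29 in the first set and 1.57 in the last. The ortholog group s2f_0000779006 of the same enzyme had 683, 1317 and 2020 CPM in methylnaphthalene larvae and 222, 345 and 423 CPM in control larvae (log2 fold change 2.00 ± 0.227, SE, edgeR adjusted p = 2.81e-05). LOC121877005, a trehalose transporter, had 8.80, 21.1 and 29.6 CPM against 0.336, 0.991 and 3.32 CPM in control larvae. Of 14 genes of this family 6 rose and none fell.

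LOC121874308, which takes up amino acids with sodium, combined a large change with a small spread. It had 115, 140 and 180 CPM as the lowest, median and highest methylnaphthalene larvae, against 0.925, 3.03 and 3.49 CPM in control larvae. The lowest exposed larva was thus far above the highest control larva, and the log2 fold change of 5.80 ± 0.497 (SE, edgeR adjusted p = 1.93e-06) was 5.84 in the first set and 5.59 in the last. Amino acid transporters rose in 5 of 8 genes, but in 2 of 28 Seq2Fun groups, with a median of 0.03. Monocarboxylate transporters, which carry lactate, pyruvate and related acids, rose in 4 of 12 genes, among them LOC121878160 (sodium-coupled monocarboxylate transporter 1) by 1.91 ± 0.218 on the log2 scale (SE, edgeR adjusted p = 3.06e-05).

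Of the genes of lipid handling, 10 of 14 for lipid and sterol transport, 3 of 4 glycerolipid acyltransferases and 6 of 10 acyl-CoA ligases rose. The ortholog groups gave smaller shares, with 2 of 13, 2 of 6 and 4 of 11 raised and medians of 0.21, 0.21 and 0.41. LOC121872706 (diacylglycerol O-acyltransferase 1), which makes storage fat, had 37.2, 56.9 and 70.2 CPM as the lowest, median and highest methylnaphthalene larvae, against 9.96, 12.8 and 19.9 CPM in control larvae. LOC121862244 (glycerol-3-phosphate acyltransferase 3), an enzyme of the same route, had 34.3, 44.6 and 59.8 CPM against 4.66, 7.29 and 12.9 CPM in control larvae. Neither gene overlapped between the groups. LOC121854312, a fatty acid-binding protein of the liver type, had 88.2, 99.9 and 154 CPM in methylnaphthalene larvae and 10.4, 20.7 and 27.9 CPM in control larvae (log2 fold change 2.47 ± 0.582, SE, edgeR adjusted p = 0.0109). LOC121876181 (NPC intracellular cholesterol transporter 1) rose by 4.62 ± 1.26 on the log2 scale (SE, edgeR adjusted p = 0.0258) with a wide range among exposed larvae, 5.26 to 92.0 CPM, and lost the call without M5 or any of C1 to C4. LOC121872623 (acyl-CoA ligase ACSF2), which activates fatty acids, rose by 1.02 in the first set and by 2.64 in the last on the log2 scale.

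Regulators included several of the smallest adjusted p-values. LOC121876286, a baculoviral IAP repeat-containing protein, of a family that inhibits apoptosis, had 12.2, 13.05 and 18.02 CPM as the lowest, median and highest methylnaphthalene larvae, against 1.10, 1.23 and 1.39 CPM in control larvae. Both groups were narrow and far apart, and its log2 fold change of 3.53 ± 0.345 (SE, edgeR adjusted p = 6.39e-06) was 3.56 in the first set and 3.51 in the last. Of 7 genes named for apoptosis 6 rose, among them 3 of the 4 caspases, the proteases that carry it out. LOC121862377 (inositol-trisphosphate 3-kinase), an enzyme of calcium signalling, had 46.7, 62.0 and 89.0 CPM in methylnaphthalene larvae and 21.6, 22.5 and 23.5 CPM in control larvae (log2 fold change 1.57 ± 0.131, SE, edgeR adjusted p = 1.93e-06), and lost its call without M4 or M5. LOC121872643 (meng-po kinase) rose by 5.69 ± 0.61 on the same scale (SE, edgeR adjusted p = 1.8e-05), from 2.48 to 60.8 CPM across exposed larvae, all above the highest control larva at 1.39 CPM.

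Of 8 genes in the transcription factor family 6 rose, among them relatives of factors of gut and liver in other animals. The only ortholog group tested in this family was below the fold threshold (log2 fold change 0.82). LOC121857404 (Nkx-2.3) had 14.9, 25.4 and 33.6 CPM in methylnaphthalene larvae and 0.654, 1.90 and 3.73 CPM in control larvae (log2 fold change 3.58 ± 0.769, SE, edgeR adjusted p = 0.00573). LOC121863871 (CCAAT/enhancer-binding protein) rose by 1.61 ± 0.224 (SE, edgeR adjusted p = 0.000174), but lost the call without M2. Outside the family, since its parent did not meet the naming rule, stood s2f_0000239018 (hepatocyte nuclear factor 4-gamma), a nuclear receptor of liver and gut. This ortholog group had 33.7, 48.8 and 77.4 CPM in methylnaphthalene larvae and 13.7, 15.3 and 18.1 CPM in control larvae (log2 fold change 1.75 ± 0.215, SE, edgeR adjusted p = 5.75e-05), 2.17 in the first set and 1.16 in the last.

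Immune effectors, mostly lectins that bind sugars on microbes, rose in 18 of 24 genes and fell in none. LOC121868831 (macrophage mannose receptor 1) had 7.17, 27.5 and 44.4 CPM in methylnaphthalene larvae and 1.22, 1.90 and 3.96 CPM in control larvae (log2 fold change 3.53 ± 0.761, SE, edgeR adjusted p = 0.0059). LOC121876642 (C-type lectin domain family 17) had 31.4, 39.0 and 58.2 CPM against 4.58, 9.56 and 17.9 CPM in control larvae, and lost its call without M5, C2, C3 or C4. Of 8 ortholog groups 2 rose. Of the 5 Kallisto haemocyte markers 1 rose, and their summed level ran between 110 and 524 CPM in methylnaphthalene larvae and between 52.1 and 114 CPM in control larvae. The part of haemocytes in these rises was not tested. The hepatopancreas markers, which include the digestive enzymes and hemocyanin above, had 57 of 79 genes raised, with a summed level between 5180 and 19800 CPM in methylnaphthalene larvae and between 523 and 1900 CPM in control larvae. Since the markers are the raised genes themselves, the share of this tissue in each larva was not tested.

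The falls were few, and 17 of the 32 genes and 2 of the 7 groups that fell belong to one of the 37 families. Crustacyanins, which bind the pigment astaxanthin and give the lobster shell its blue colour, had 8 of 10 genes lowered and none raised, with a median log2 fold change of -2.07, and 4 of the 10 had no overlap between the groups. LOC121869696 (crustacyanin-A2) had 243, 265 and 519 CPM as the lowest, median and highest methylnaphthalene larvae, against 665, 983 and 2330 CPM in control larvae. The groups did not overlap, M5 was the highest exposed larva and C5 the highest control, and the log2 fold change was -2.09 ± 0.524 (SE, edgeR adjusted p = 0.0159). LOC121869734 had the largest change of the family, -2.47 ± 0.635 (SE, edgeR adjusted p = 0.0184), with 7.96, 15.03 and 30.96 CPM in methylnaphthalene larvae and 33.8, 77.6 and 226 CPM in control larvae, and lost the call without C4. The ortholog group s2f_0001152004 had 1945, 2509 and 5955 CPM in methylnaphthalene larvae and 6490, 9228 and 23060 CPM in control larvae (log2 fold change -2.06 ± 0.514, SE, edgeR adjusted p = 0.0176).

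A zinc finger gene and some chaperones were among the falls. LOC121878881 (AN1-type zinc finger protein 2A), whose mammalian relative is induced by arsenite and heat, had 7.74, 15.4 and 30.97 CPM as the lowest, median and highest methylnaphthalene larvae, against 92.0, 159 and 298 CPM in control larvae. No larva overlapped, and the log2 fold change of -3.39 ± 0.356 (SE, edgeR adjusted p = 1.54e-05) was -3.59 in the first set and -2.65 in the last. The ortholog group s2f_0001499003, linked to this gene only by its name, fell by 3.69 ± 0.265 on the log2 scale (SE, edgeR adjusted p = 1.34e-07). That was the smallest adjusted p of the 7 groups that fell. Chaperones that refold proteins fell too, and LOC121855754, LOC121855757 and LOC121855758, of the heat shock 70 kDa family, did so by 5.13, 4.74 and 4.79 on the log2 scale. LOC121855757, the most abundant of them in control larvae, had 0.354, 4.52 and 15.2 CPM in methylnaphthalene larvae and 22.4, 142 and 291 CPM in control larvae.

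The heat shock falls were larger in the first set of larvae, at -5.23, -4.84 and -4.94 for these 3 genes, than in the last, at -3.05, -2.87 and -2.88, a difference that did not pass the interaction test. The ortholog group s2f_0000056010 (heat shock 70 kDa) had a log2 fold change of -2.24 in the first set and 0.04 in the last, which did pass it (edgeR adjusted p = 0.049), and -1.62 ± 0.357 in all larvae (SE, edgeR adjusted p = 0.00729), a call lost with limma or the replicate block and without M3 or C4. Not every heat shock gene fell. Of 11 tested, 4 fell, 3 were higher at an adjusted p below 0.05, and the family median was -1.11 in the first set and 0.02 in the last. The summed level overlapped, between 921 and 1800 CPM in methylnaphthalene larvae and between 1380 and 3640 CPM in control larvae. Of the higher genes, LOC121875504 (heat shock protein 22), named after its values were seen, rose by 1.70 on the log2 scale. Of 20 heat shock ortholog groups 2 fell and none rose.

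Other falls stood alone. The ortholog group s2f_0112968001 (samkC kinase) had 0.592, 1.61 and 8.25 CPM in methylnaphthalene larvae and 8.85, 18.1 and 42.8 CPM in control larvae (log2 fold change -3.0 ± 0.542, SE, edgeR adjusted p = 0.00162). The sialidase group s2f_0071097001 overlapped between the groups, with 41.7, 51.0 and 209 CPM in methylnaphthalene larvae and 98.2, 417 and 1446 CPM in control larvae, and its log2 fold change of -2.73 in all larvae was -3.99 in the first set and -0.69 in the last. LOC121859404, which has no name in the sources used, had 9.67, 14.97 and 23.7 CPM against 32.4, 48.5 and 91.5 CPM in control larvae.

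Several families that toxicants are known to move had few or no members past both thresholds. The 5 ortholog groups of the aryl hydrocarbon receptor family (s2f_0000682003, s2f_0000682005, s2f_0000682006, s2f_0000682009 and s2f_0002281005), which in vertebrates includes the receptor that senses aromatic hydrocarbons, had log2 fold changes of 0.09, 0.06, 0.14, -0.52 and 0.45, and none had an adjusted p below 0.05 (edgeR, smallest 0.315). All 5 overlapped between the groups. Of these, 4 entered through parent s2f_0000682, which had only 1 named group, so some may not belong to this family. No Kallisto gene carried a name of this family, since names cover only the most significant features. Whether its genes changed there is therefore not known. Antioxidant enzymes had no DEG among 5 genes and none among 15 ortholog groups. By the adjusted p alone, 3 of the 5 genes and 2 of the 15 groups were higher, 3 genes and 2 groups had no overlap, and the summed level of the genes lay between 228 and 373 CPM in methylnaphthalene larvae and between 136 and 158 CPM in control larvae. LOC121858232 (glutathione peroxidase) had 38.7, 51.2 and 99.9 CPM in methylnaphthalene larvae and 3.40, 9.48 and 15.6 CPM in control larvae. Its adjusted p was 0.0524 (edgeR), and it passed the thresholds in 10 of the alternatives, among them limma and DESeq2.

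Structural tissues moved unevenly. LOC121866781 (troponin I of muscle) had 2541, 2864 and 4161 CPM in methylnaphthalene larvae and 4086, 4772 and 5708 CPM in control larvae, below the fold threshold (log2 fold change -0.61 ± 0.165, SE, edgeR adjusted p = 0.0251). The group s2f_0002032006 (troponin T) had 4923, 5455 and 7057 CPM against 7119, 8580 and 10170 CPM in control larvae, with no overlap (log2 fold change -0.58). In both, the log2 fold change was nearer to 0 in the last set of larvae, at -0.22 and -0.26, than in the first, at -0.95 and -0.81. The other muscle markers, named after their values were seen, did not all go this way, and none was a DEG. LOC121873119 (titin) had a log2 fold change of 2.04, on at most 25 reads in any methylnaphthalene larva. The groups s2f_0001347006 (troponin I) and s2f_0004633001 (titin) had -0.59 and -0.2. Of 22 cuticle genes 2 rose (LOC121869444, a cuticle protein, and LOC121869722, pro-resilin) and 1 fell (LOC121877773, pro-resilin), the pro-resilins being named after their values were seen. None of the 26 groups tested in the Seq2Fun cuticle family rose or fell. Most of these groups have no name, and 22 groups entered through parent s2f_0000163, where 2 of 3 named groups matched, so many may not be cuticle proteins. The cuticle median was -1.69 in the first set and 0.51 in the last. Cuticle and crustacyanin genes together, the epidermis markers, had 9 of 32 tested genes lowered and 2 raised. Their summed level lay between 1760 and 3010 CPM in methylnaphthalene larvae and between 4500 and 10500 CPM in control larvae. The cuticle genes alone overlapped, between 584 and 1810 CPM and between 987 and 3520 CPM. The share of epidermis in each larva was not tested. None of 6 genes of DNA replication passed the fold threshold, 4 were lower at an adjusted p below 0.05, and their median was -0.86 in the first set and -0.03 in the last.

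Many of the features with the smallest adjusted p had no informative name. LOC121874996 had 23.1, 32.5 and 40.6 CPM as the lowest, median and highest methylnaphthalene larvae, against 6.53, 7.33 and 7.69 CPM in control larvae (log2 fold change 2.14 ± 0.149, SE, edgeR adjusted p = 2.79e-07), and 2.18 and 2.15 in the sets. LOC121865104 had 378, 406 and 572 CPM against 126, 137.5 and 189 CPM in control larvae, just past the fold threshold at 1.52, a call lost without M3, C2, C3 or C4. The group s2f_0144728001 (serine/arginine repetitive matrix protein 1) had 2.64, 3.52 and 4.68 CPM in methylnaphthalene larvae and at most 1 read in any control larva, the largest fitted change of the Seq2Fun table at 7.12. Of the 694 genes that rose, 659 were protein-coding and 35 long non-coding RNAs, which is 3.97% of the protein-coding and 1.90% of the long non-coding genes tested.

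The WAF larvae, compared with the same 6 control larvae, had a median log2 fold change of 0.80 over the 694 raised genes, where 2 passed the thresholds, and of -1.77 over the 32 lowered genes, where 7 did. Both contrasts share their controls, so these values are given side by side only. Among the genes above, LOC121874308 had a log2 fold change of 5.80 with methylnaphthalene and 1.75 with WAF, LOC121876286 of 3.53 and 0.61, LOC121878881 of -3.39 and -4.43, and LOC121869696 of -2.09 and -0.93.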

How the data were processed

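RNA was sequenced from 19 whole lobster larvae. The authors filtered reads at a minimum quality score and deposited 2 tables without normalization. The first holds the estimated counts that the authors deposited per RefSeq transcript (GMGI_Hamer_2.0) from Kallisto, of which 54.4% have decimals (beyond 1e-06 of a whole number). The second holds raw counts per ortholog group, which the authors deposited from Seq2Fun searches of their Crustaceans database. All 46006 transcripts were matched to 25667 genes, and the values were added up within each gene, then rounded. Features with a total of at least 4 counts were kept, then the 15% with the smallest interquartile range were removed.

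Tests used edgeR 4.0.16 (R 4.3.3), quasi-likelihood after TMM, in 1 fit of all 19 larvae, with methylnaphthalene minus control as the contrast. Each SE is the absolute log2 fold change divided by the square root of the F statistic of that test. The study's methods name limma, which was an alternative because the values are counts. The other alternatives were the likelihood ratio test, DESeq2 1.42.0, other library sizes and filters, no fold threshold, a fit of both groups only, a replicate block, 1 surrogate variable (sva 3.50.0), transcripts, and each larva left out. Fits within the sets of larvae, with the set as a term and without W6 and W7 were added after the data were seen. Single values were compared by exact permutation (scipy 1.17.1). The fitting steps were tested on simulated data.

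Names come from the study's supplementary data, which name 1999 genes and 1690 lobster groups, and from 333 groups of its other species. The members, families and lists were chosen with earlier results of these data known. In each family the called member with the highest mean CPM and that with the largest change among those without overlap were taken, with all members of families of 5 or fewer, the 5 named DEGs with the smallest adjusted p in each direction, and up to 2 unnamed ones in each direction, with 1 member a family for ortholog groups. Of the 152 features so taken, 83 are given with values, a choice made after the values were seen. No coordinates or sequences are given, since no genome was used here. Counting error depends on the totals given, and reads carry no molecular identifiers.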

Additional observations from a re-analysis of the deposited data

Results flagged for a closer look

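In 15 of the genes and groups described above, a single larva stood apart from the other 5 of its group by Dixon's test for 6 samples. That test flags about 1 in 20 groups by chance, so part of the 15 would arise by chance among the 83 features given with values. All 15 were the highest larva of their group in CPM, a scale on which high values stand apart more readily. M3 was highest for LOC121856452 (207 CPM, next 149.7 CPM) and LOC121865104 (572 CPM, next 444 CPM). M5 was highest for LOC121876453 (83.6 CPM, next 26.2 CPM), LOC121869696 (519 CPM, next 266.5 CPM), LOC121858232 (99.9 CPM, next 60.6 CPM) and s2f_0001152004 (5955 CPM, next 3008 CPM), of which LOC121869696 and s2f_0001152004 are crustacyanins. M2 was highest for 3 features that fell in methylnaphthalene larvae, LOC121855757 (15.2 CPM, next 5.83 CPM), s2f_0001499003 (8.01 CPM, next 4.41 CPM) and s2f_0112968001 (8.25 CPM, next 2.69 CPM). Among control larvae, C5 was highest for LOC121857494 (5.06 CPM, next 2.69 CPM) and LOC121877417 (0.442 CPM, next 0.147 CPM), C6 for LOC121865056 (14.5 CPM, next 10.3 CPM) and s2f_0144728001 (0.111 CPM, the others at 0), C3 for LOC121872643 (1.39 CPM, next 0.653 CPM) and C4 for s2f_0000108009 (132.1 CPM, next 95.7 CPM).

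Outside the comparison, WAF larvae W6 and W7 carried much of the raised pattern. W6 was above all control larvae in 636 of the 694 raised genes and in 275 of the 303 raised ortholog groups, and W7 in 595 and 250, whereas W1 to W5 were so in 54 to 186 of the genes. W6 and W7 are the WAF larvae among the last 7 of the sample list. The control larvae of that set, C5 and C6, were the highest controls, with 0.852% and 0.783% of their counts in the raised genes, against 0.314% to 0.524% in C1 to C4, and the genes were chosen for being low in all 6. What sets W6 and W7 apart was not tested.

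The effect of methylnaphthalene differed between the first 12 and the last 7 larvae in 16 ortholog groups (edgeR interaction term, adjusted p below 0.05), of which 5 were DEGs. Those 5, with log2 fold changes in the first and in the last set, were s2f_0000056010 (heat shock 70 kDa, -2.24 and 0.04), s2f_0000384007 (NADPH-cytochrome P450 reductase, 0.52 and 2.38), s2f_0000486003 (cytochrome b5, 2.90 and 0.08), s2f_0001985001 (delta-1-pyrroline-5-carboxylate synthase, 1.2 and 3.52) and s2f_0043391001 (no informative name, 4.73 and 1.76).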

How the results depend on the processing

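The counts of raised genes and groups were within 1.5 times of the values given under all other fits except the following. Without the fold threshold, 1363 genes and 615 groups were higher, and 252 and 67 lower. With transcripts in place of genes 307 rose and 13 fell. The falls moved more often. With 1 surrogate variable 62 genes and 13 groups fell, with the place in the sample list as a term 57 and 12, in the first 12 larvae alone 178 and 45, and in the last 7 alone 10 and 4. The term and both subsets were added after the data were seen, and the causes were not tested.

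With each larva left out in turn, 492 to 716 genes rose and 24 to 33 fell, and 235 to 319 groups rose and 5 to 9 fell. DEGs without overlap numbered 462 to 637 and 216 to 289. Of the 57 genes and 16 groups named that were called, 41 and 13 kept the call in all of these fits, and 33 and 10 in every other fit tried as well. Without TMM, LOC121874841, LOC121870351, LOC121856941, LOC121867505, LOC121880057, LOC121876642, LOC121865104 and s2f_0002890013 lost their calls. The only reversal was s2f_0000056010 in the last 7 larvae, at 0.04. With the replicate block, 755 genes rose and 30 fell, and 299 groups rose and 5 fell. Whether the numbers pair the larvae cannot be decided from expression, since no label speaks of pairing and unpaired or paired larvae can both correlate weakly. Correlations of same-numbered larvae ran between -0.25 and 0.42 for genes and between -0.4 and 0.6 for groups. Only replicates 5 and 6 correlated best with their own number. M5, M6, C5 and C6 are all among the last 7 larvae of the sample list. The part of that division in these correlations was not tested. Low counts limit the folds of genes whose control larvae had 3 reads or fewer.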
